A study of Mus musculus with 4 samples.

Results

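The genes described here are 10 genes of the hypoxia-inducible factor (HIF) pathway, measured by RNA-seq in whole mouse islets at low and high glucose. They are *Hif1a*, the gene of a HIF alpha subunit, and 9 genes known as targets of HIF: *Egln1*, *Egln3*, *Adm*, *Vegfa*, *Bnip3*, *Pdk1*, *Ankrd37*, *Bhlhe40* and *Ndrg1*. They were taken by symbol from a deposited table of 24157 gene symbols and lncRNAs (28047 distinct transcript entries), and where a symbol had several entries the entry with the highest mean was kept. All 10 were found.

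Islets are small clusters of endocrine cells made up mostly of insulin-producing beta cells, with alpha, delta and other cells beside them. The islets came from wild type male C57bl6 mice of 3 months, were combined into a pool and were kept overnight at 11 mM glucose, then for 2 h at 2.8 mM glucose. One group of 2 libraries was then held at 2.8 mM glucose, and the other group of 2 libraries was stimulated with 16.8 mM glucose. The sources conflict on how long this lasted. The series' design text and the study's methods give 12 h at either concentration. The sample labels give 2 h at 2.8 mM against 12 h at 16.8 mM. If the labels are right, time and glucose cannot be told apart. No separate animals or cultures are named for the libraries of a group, so p-values measure only the spread between these libraries, which may be technical.

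HIF is a transcription factor made of an oxygen-sensitive alpha subunit and a stable partner, ARNT. At normal oxygen, prolyl hydroxylases of the EGLN family mark the alpha subunit for capture by the VHL ubiquitin ligase and for breakdown, so that HIF activity is set mainly by the amount of alpha protein and less by its mRNA. When oxygen falls, the stable subunit pairs with ARNT at short DNA elements and raises genes for glycolysis, blood vessel growth, mitochondrial turnover and its own hydroxylases. Beta cells burn glucose by mitochondrial respiration and use much oxygen when glucose is high, which is why these genes are often followed in islets. Neither oxygen nor HIF protein was measured here.

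Of the 10 genes, 6 rose at 16.8 mM glucose and none fell. The risers were *Ankrd37*, *Adm*, *Bnip3*, *Pdk1*, *Bhlhe40* and *Egln1*, with ratios of mean RPKM (reads scaled to transcript length and to the depth of the library) from 1.60 for *Bhlhe40* to 4.37 for *Adm*. *Hif1a* itself, *Vegfa* and *Ndrg1* did not pass the test and their groups overlapped. *Egln3* lay under the minimum mean of 1 RPKM that the test required, but its 16.8 mM libraries were both far above its 2.8 mM libraries. The test was limma on log2(RPKM + 0.5) with Benjamini-Hochberg adjustment over 7867 transcripts at 0.05, and it called 33.4% of them in either direction, 10.7% as higher and 22.8% as lower at 16.8 mM glucose, against 6 higher of the 9 genes tested. Both 16.8 mM libraries lay above both 2.8 mM libraries in 22.2% of the tested transcripts, in 6 of the 9 tested genes and in *Egln3*. The median log2 fold change was 0.67 over the 9 tested genes and -0.11 over all tested transcripts. The minimum is a mean over all 4 libraries, and *Adm* reached it only through its 16.8 mM values. With at least 1 RPKM in every library, 4 of 7 genes were called higher, against 868 of 6909 transcripts.

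**Figure D1:**
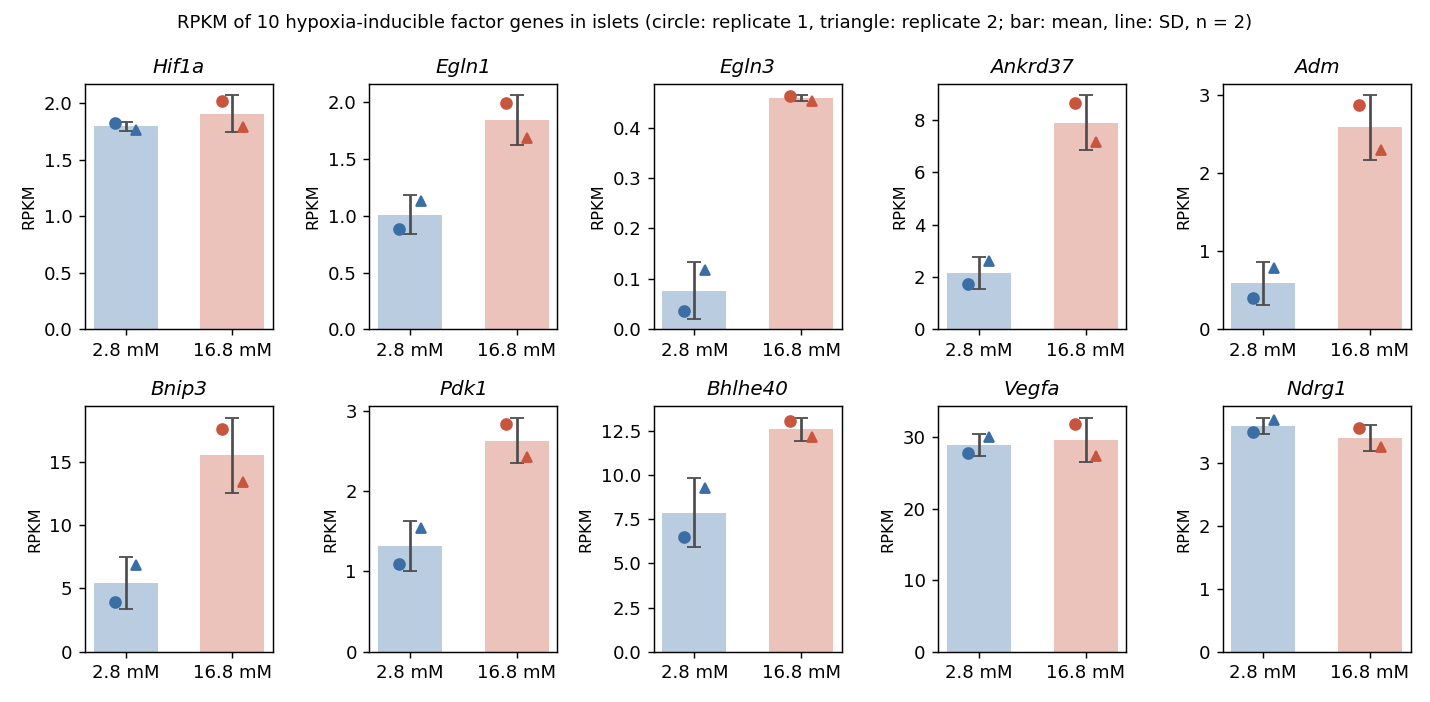
RPKM of each of the 10 genes (vertical axes, each from 0) in islets at 2.8 mM and 16.8 mM glucose; circles are replicate 1, triangles replicate 2, bars the mean and lines the SD over 2 libraries. In 7 panels both 16.8 mM points lie above both 2.8 mM points, and in the panels of *Hif1a*, *Vegfa* and *Ndrg1* the groups overlap.

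The DNA upstream of these genes is shown for the core of the hypoxia response element, the short sequence that HIF is known to bind. The sequences are the 250 bases upstream of the RefSeq transcript start on mouse GRCm38.p6, written 5′ to 3′ along the gene, and capitals mark each match to the core ACGTG or GCGTG on either strand (CACGT or CACGC when read on the other strand). A run of more than 5 capitals holds overlapping matches: the 6 letters CACGTG hold ACGTG on both strands. The 4 genes with the largest ratios of mean RPKM are shown, with *Hif1a* for the factor itself.
*Egln3*, chr12:54203875-54204124, minus strand: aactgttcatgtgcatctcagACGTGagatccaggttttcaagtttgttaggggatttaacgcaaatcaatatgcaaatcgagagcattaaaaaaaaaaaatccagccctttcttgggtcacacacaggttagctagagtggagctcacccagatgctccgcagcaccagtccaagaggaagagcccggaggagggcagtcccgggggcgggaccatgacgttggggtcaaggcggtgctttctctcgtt
*Adm*, chr7:110627407-110627656, plus strand: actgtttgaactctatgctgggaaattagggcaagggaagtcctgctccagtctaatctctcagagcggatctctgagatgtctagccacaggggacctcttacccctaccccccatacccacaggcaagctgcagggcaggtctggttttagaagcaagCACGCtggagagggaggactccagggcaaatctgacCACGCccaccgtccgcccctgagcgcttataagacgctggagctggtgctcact
*Ankrd37*, chr8:45999851-46000100, minus strand: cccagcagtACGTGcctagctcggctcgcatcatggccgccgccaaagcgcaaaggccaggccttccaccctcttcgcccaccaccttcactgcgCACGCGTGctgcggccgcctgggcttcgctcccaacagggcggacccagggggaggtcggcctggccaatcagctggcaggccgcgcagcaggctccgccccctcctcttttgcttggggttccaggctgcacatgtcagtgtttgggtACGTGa
*Bnip3*, chr7:138909507-138909756, minus strand: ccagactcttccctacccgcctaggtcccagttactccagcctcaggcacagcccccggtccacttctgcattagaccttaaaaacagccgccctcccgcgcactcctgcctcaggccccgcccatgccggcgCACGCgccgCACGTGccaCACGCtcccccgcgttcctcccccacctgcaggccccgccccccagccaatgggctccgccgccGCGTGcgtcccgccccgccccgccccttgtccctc
*Hif1a*, chr12:73907617-73907866, plus strand: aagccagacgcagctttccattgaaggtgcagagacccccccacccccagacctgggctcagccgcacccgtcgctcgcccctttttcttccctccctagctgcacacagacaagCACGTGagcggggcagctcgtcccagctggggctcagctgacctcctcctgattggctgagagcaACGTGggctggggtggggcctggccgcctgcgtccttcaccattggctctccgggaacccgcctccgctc

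RefSeq windows were found for 8 of the 10 genes, with a window at an alternative start for *Vegfa* and *Pdk1*, 10 in all. Each of the 8 genes had at least 1 match in some window, and 8 of the 10 windows held one. The windows without a match were the more upstream *Vegfa* window (chr17:46032378-46032627) and the more downstream *Pdk1* window (chr2:71874654-71874903). Matches for *Vegfa* were only in the window further along the gene, chr17:46025164-46025413. Of all 32851 windows of this length, 38.6% held a match, and 6.02% held CACGTG, which was present in the windows of *Hif1a* and *Bnip3*. *Bnip3* had 5 matches and *Ankrd37* had 4, the last of them starting 6 bases before the transcript start. *Hif1a*, whose RNA did not pass the test, had 3. These matches describe letters only; no binding was measured.

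*Hif1a* did not pass the test. It read 1.82 and 1.77 RPKM in replicates 1 and 2 at 2.8 mM glucose and 2.02 and 1.79 RPKM at 16.8 mM. The groups overlapped, since the lower 16.8 mM library lay 0.982 times the higher 2.8 mM library. The log2 fold change was 0.07 with a 95% interval of -0.14 to 0.28 (limma, adjusted p = 0.583). The median of all tested transcripts moved by -0.11, and relative to it *Hif1a* stood at 0.18. When the libraries were instead centred on their medians the log2 fold change of *Hif1a* was 0.15 and passed the test (adjusted p = 0.0465 with limma, between 0.0451 and 0.608 over its alternatives with all 4 libraries). The gene lies at chr12:75002362-75048517 on the plus strand of mm9, with the antisense lincRNA *Gm15283* over 21050 bases of it; whether the counting used strand is not given in the sources used here.

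The hydroxylase genes *Egln1* and *Egln3* were both higher at 16.8 mM glucose. EGLN1 (PHD2) is the main oxygen sensor that acts on HIF, and EGLN3 (PHD3) is a paralog known as one of the most inducible HIF targets. *Egln1* (chr8:127432496-127473154, minus strand, mm9) read 0.887 and 1.13 RPKM at 2.8 mM and 2.00 and 1.68 RPKM at 16.8 mM. It rose by 0.63 on the log2(RPKM + 0.5) scale (SE 0.11, limma adjusted p = 0.0063), a ratio of means of 1.82. *Egln3* (chr12:55279968-55304847, minus strand, mm9) read 0.0371 and 0.117 RPKM at 2.8 mM and 0.463 and 0.454 RPKM at 16.8 mM, a ratio of means of 5.96.

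*Egln3* was near the low end of what these libraries resolve at 2.8 mM glucose. Its values stand for about 54 and 151 reads in the 2.8 mM libraries against 699 and 574 in the 16.8 mM libraries, with exact Poisson 95% intervals of 0.0279 to 0.0484 RPKM for replicate 1 and 0.0988 to 0.137 RPKM for replicate 2 at 2.8 mM. These intervals cover counting error only and do not overlap, so the replicates at 2.8 mM differed by more than counting error. The 16.8 mM libraries exceeded both. In a fit with no minimum RPKM, *Egln3* rose by 0.74 on the log2(RPKM + 0.5) scale (SE 0.08, limma adjusted p = 0.0295, between 1.8e-06 and 0.0295 over its alternatives with all 4 libraries); voom on the reconstructed reads, which adds far less to a low gene, gave 2.82 (SE 0.30). The same fit without a minimum ended the call of *Egln1* (adjusted p = 0.0565, between 2.6e-05 and 0.0565 over such alternatives).

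Of the genes for secreted proteins, *Adm* rose and *Vegfa* did not pass the test. *Adm* encodes adrenomedullin, a peptide that dilates vessels and acts on endothelial cells. It read 0.398 and 0.788 RPKM at 2.8 mM and 2.88 and 2.30 RPKM at 16.8 mM. Its mean at 2.8 mM, 0.593 RPKM, was under the minimum of 1 RPKM, so *Adm* entered the test only through its 16.8 mM values. The ratio of means was 4.37, and the rise on the log2(RPKM + 0.5) scale was 1.52 (SE 0.17, limma adjusted p = 0.0014), smaller than the log2 ratio of means of 2.13 because of the 0.5 added. *Adm* is a short gene (chr7:117771175-117773331, plus strand, mm9), so about 50 and 89 reads lie behind the 2.8 mM values and 378 and 253 behind the 16.8 mM values.

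*Vegfa* encodes the growth factor that keeps the islet's dense capillary bed. It read 27.8 and 29.9 RPKM at 2.8 mM and 31.8 and 27.4 RPKM at 16.8 mM, so that the 16.8 mM libraries lay on either side of the 2.8 mM libraries. The log2 fold change was 0.03 with a 95% interval of -0.29 to 0.35 (limma, adjusted p = 0.874), on 21376 to 29676 reads per library. That interval lies below the log2 fold change of each of the 6 genes that rose, the smallest of which was 0.63. It overlaps the 95% interval of *Bhlhe40*, 0.27 to 1.07, and differences between genes were not tested. The table had 9 entries for *Vegfa* (chr17:46153942-46169326, minus strand, mm9) with 2 distinct sets of values; the other set read 22.0 and 22.3 RPKM at 2.8 mM and 25.04 and 21.7 RPKM at 16.8 mM, and it did not pass the test either (log2 fold change 0.07, limma adjusted p = 0.698).

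The mitochondrial and metabolic targets *Bnip3* and *Pdk1* both rose. BNIP3 is a mitochondrial outer membrane protein that promotes removal of mitochondria by autophagy. *Bnip3* read 3.94 and 6.85 RPKM at 2.8 mM and 17.6 and 13.4 RPKM at 16.8 mM. The ratio of means was 2.88, and the log2 fold change was 1.48 (SE 0.24, limma adjusted p = 0.0052). Its 2.8 mM replicates differed by 1.74-fold, and the lower 16.8 mM library was still 1.96 times the higher 2.8 mM library. PDK1, pyruvate dehydrogenase kinase, restrains the entry of pyruvate into the mitochondrial citric acid cycle. *Pdk1* read 1.09 and 1.54 RPKM at 2.8 mM and 2.83 and 2.43 RPKM at 16.8 mM, a ratio of 2.00 with no overlap and a log2 fold change of 0.79 (SE 0.13, limma adjusted p = 0.0055). Without a minimum RPKM both calls were lost, at adjusted p = 0.0654 for *Bnip3* (3.5e-08 to 0.0654 over its alternatives with all 4 libraries) and 0.0583 for *Pdk1* (7.1e-07 to 0.0583). *Bnip3* lies at chr7:146082519-146101202 (minus strand) and *Pdk1* at chr2:71711281-71741915 (plus strand) of mm9.

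*Ankrd37*, a gene for a small ankyrin repeat protein used as a marker of HIF activity, had the largest rise on the log2(RPKM + 0.5) scale. It read 1.73 and 2.59 RPKM at 2.8 mM and 8.63 and 7.14 RPKM at 16.8 mM, a ratio of means of 3.65. The lower 16.8 mM library was 2.76 times the higher 2.8 mM library. The log2 fold change was 1.67 (SE 0.17, limma adjusted p = 8.9e-04), rank 51 from the top among the 7867 transcripts. The gene (chr8:47082256-47085221, minus strand, mm9) overlaps *Ufsp2* by 57 bases and *Lrp2bp* by 565 bases on the other strand. *Ufsp2*, named here because of the overlap, also rose, from 2.19 and 2.00 RPKM at 2.8 mM to 2.86 and 2.72 RPKM at 16.8 mM (log2 fold change 0.34, limma adjusted p = 0.0256). *Lrp2bp*, too low for the test, read 0.0580 and 0.0642 RPKM at 2.8 mM and 0.148 in both 16.8 mM libraries, with no overlap. Their part in the value of *Ankrd37* was not tested.

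*Bhlhe40* rose, and *Ndrg1* did not pass the test. BHLHE40 is a transcriptional repressor induced by HIF and also a member of the circadian clock loop. *Bhlhe40* (chr6:108610623-108616919, plus strand, mm9) read 6.48 and 9.26 RPKM at 2.8 mM and 13.1 and 12.2 RPKM at 16.8 mM, a ratio of 1.60. The groups did not overlap and the log2 fold change was 0.67 (SE 0.17, limma adjusted p = 0.0236). It was the least firm of the 6 calls: the adjusted p was 0.0511 with median centring, 0.0666 with quantile normalization and 0.111 without a minimum (3.8e-04 to 0.111 over its alternatives with all 4 libraries), and without replicate 1 at 2.8 mM the log2 fold change was 0.43.

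NDRG1 is a cytoplasmic protein widely used as a marker of long hypoxia. *Ndrg1* (chr15:66760883-66801202, minus strand, mm9) read 3.49 and 3.68 RPKM at 2.8 mM and 3.54 and 3.25 RPKM at 16.8 mM, so its groups overlapped. The log2 fold change was -0.07 with a 95% interval of -0.29 to 0.16 (limma, adjusted p = 0.607), and its sign turned with median centring, to 0.02. This interval, too, lies below the smallest rise among the 6 genes called.

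**Figure D2:**
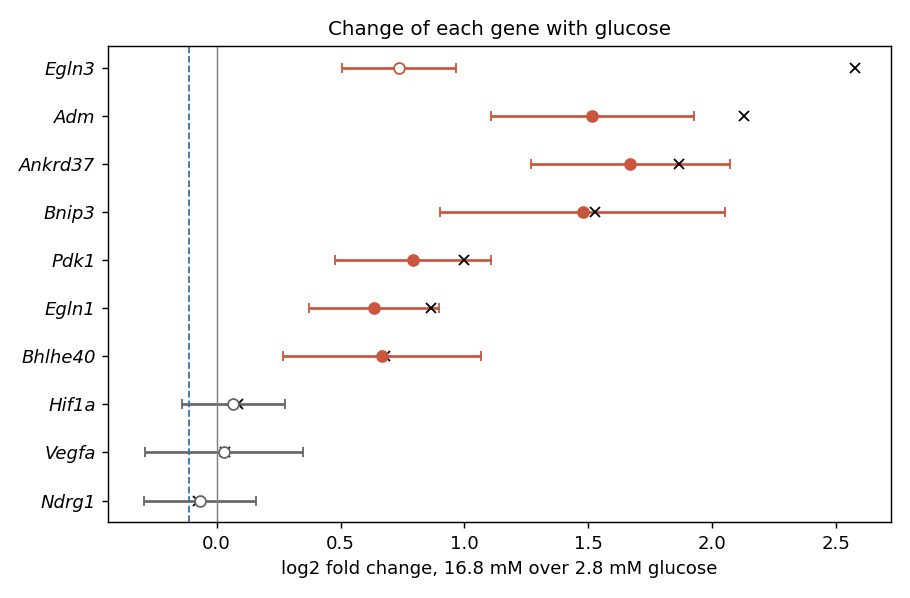
Log2 fold change of each gene, 16.8 mM over 2.8 mM glucose (horizontal axis, log2(RPKM + 0.5) scale), with its 95% interval from limma; filled red points passed the test, open grey points did not, and the open red point is *Egln3* from the fit with no minimum RPKM. Crosses are the log2 ratio of mean RPKM with nothing added (2.57 for *Egln3*, 2.13 for *Adm*), the solid line is 0 and the dashed line, at -0.11, the median of all tested transcripts.

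Relative to the median of all tested transcripts, the 6 genes that rose stood between 0.75 for *Egln1* and 1.78 for *Ankrd37* on the log2 scale, while *Vegfa* stood at 0.14 and *Ndrg1* at 0.04. By rank of log2 fold change among the 7867 transcripts, *Adm* was at 74 and *Bnip3* at 80. *Pdk1* followed at 328, *Bhlhe40* at 421 and *Egln1* at 451, whereas *Hif1a*, *Vegfa* and *Ndrg1* stood at 2204, 2497 and 3440.

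The deposited RPKM values fit a length that counts introns, so levels of the 10 genes were compared with each other only after rescaling to exon length. The minimum of 1 RPKM for the test was applied to the values as deposited. The rescaling assumes that no counted read came from an intron, which was not tested. If such reads were counted, genes with long introns stand too high in the order given here. On the rescaled values *Vegfa* had the highest mean at 2.8 mM glucose, 103 RPKM, followed by *Bnip3* at 44.5 RPKM. *Ndrg1* came next at 21.9 RPKM, then *Bhlhe40* at 15.1, *Hif1a* at 14.1 and *Egln1* at 11.7 RPKM; the spread of *Bhlhe40* over its replicates, 12.5 to 17.8 RPKM, took in both *Hif1a* libraries. *Ankrd37* (4.33 and 6.47 RPKM) and *Pdk1* (4.31 and 6.05 RPKM) were not separated by their replicates. *Adm* at 0.924 RPKM and *Egln3* at 0.719 RPKM were lowest, and their replicates overlapped. At 16.8 mM the order had changed at the top, with *Bnip3* at 128 RPKM (145 and 111) and *Vegfa* at 106 RPKM (114 and 98.0), groups that overlapped. *Bhlhe40* followed at 24.3 RPKM, above *Egln1* at 21.3, *Ndrg1* at 20.8 and *Ankrd37* at 19.7 RPKM, whose replicates overlapped. *Hif1a* stood at 14.9 RPKM and *Pdk1* at 10.3 RPKM. *Egln3* (4.28 RPKM) and *Adm* (4.04 RPKM) were again lowest, with overlapping replicates.

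The replicates of a group were not alike for these genes. At 2.8 mM glucose replicate 2 read higher than replicate 1 in 9 of the 10 genes, by a median of 1.42-fold and up to 3.15-fold for *Egln3*; *Hif1a* was the exception. Of all tested transcripts 15.4% read higher in replicate 2 at 2.8 mM. At 16.8 mM the order was the other way, with replicate 1 higher in 10 of 10 genes by a median of 1.16-fold, as it was for most transcripts, of which 14.3% read higher in replicate 2. After *Egln3*, the largest gaps at 2.8 mM were those of *Adm* at 1.98-fold and *Bnip3* at 1.74-fold. *Vegfa* and *Ndrg1* differed by 1.08-fold and 1.05-fold between the same libraries. Fits that leave out 1 library keep a single library in a group and assume that it varies like the other group. With each of the 4 libraries left out in turn, the log2 fold change ranged from 1.11 to 1.84 for *Bnip3*, 1.26 to 1.78 for *Adm* and 1.43 to 1.90 for *Ankrd37*.

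**Figure D3:**
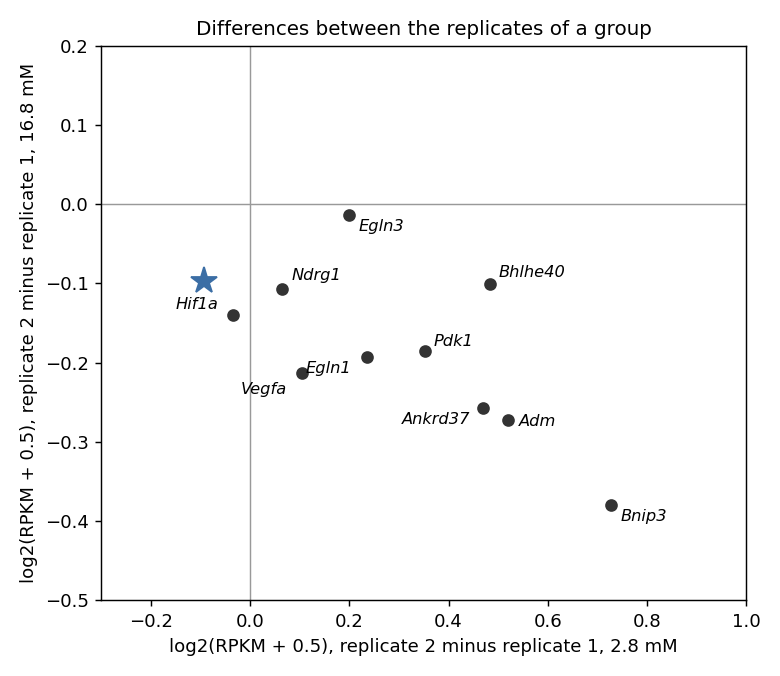
Difference between replicate 2 and replicate 1 in log2(RPKM + 0.5) for each of the 10 genes at 2.8 mM (horizontal axis) and at 16.8 mM glucose (vertical axis); the star marks the medians of all tested transcripts, -0.09 and -0.10. To the right of 0 lie 9 of the genes, and all 10 lie below 0 on the vertical axis.

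Markers of other cell types were read in the same libraries. Their values and sums are RPKM as deposited, not rescaled to exon length. Hormone genes of the islet were abundant: *Ins2* alone read 15943 to 30018 RPKM. The summed RPKM of 6 beta cell markers was 21284 and 19048 at 2.8 mM and 40846 and 37879 at 16.8 mM, and 5 of the 6 rose. The 6 acinar markers, genes for digestive enzymes of the exocrine pancreas, summed to 96.1 and 275 RPKM at 2.8 mM and 231 and 479 RPKM at 16.8 mM, so they were higher in replicate 2 of either group, and none of the 6 passed the test. The 7 endothelial markers summed to 7.81 and 5.10 RPKM at 2.8 mM and 9.53 and 6.59 RPKM at 16.8 mM. *Tek*, the lowest, read 0.0323 and 0.0262 RPKM at 2.8 mM and 0.0505 and 0.0374 RPKM at 16.8 mM. Both 16.8 mM libraries lay above both 2.8 mM libraries for *Tek*, *Pecam1*, *Cdh5* and *Flt1*. The groups overlapped for *Kdr*, *Esm1* and *Plvap*. The 2 duct markers summed to 1.36 and 4.09 RPKM at 2.8 mM and 4.42 and 7.84 RPKM at 16.8 mM. The 6 macrophage and leukocyte markers lay between 10.9 and 16.2 RPKM in sum, and 1 of them, *Cd14*, rose, from 0.927 and 0.910 RPKM at 2.8 mM to 1.94 and 1.87 RPKM at 16.8 mM (log2 fold change 0.76, limma adjusted p = 8.3e-04). Stromal markers lay between 1.59 and 3.28 RPKM. The alpha markers summed to 1477 to 2159 RPKM, the delta markers to 441 to 693 RPKM and *Ppy* to 729 to 1138 RPKM. There was no call in the endothelial, duct, stromal, alpha, delta or *Ppy* lists. However, only 1 of 7 endothelial, 1 of 2 duct and 1 of 4 stromal markers reached the minimum for the test. It was reached by 2 of 3 alpha markers, 2 of 2 delta markers, *Ppy* and 3 of 6 macrophage and leukocyte markers. The part of these cells in the values of the 10 genes was not tested. In bulk islets, more cells of a type and more RNA per cell cannot be told apart.

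In the wider pathway most calls were rises. Of 57 other genes in lists of HIF subunits and regulators, glycolytic targets and other targets, 38 were tested. Of these 24 were called higher and 1 lower, with a median log2 fold change of 0.64. Of all tested transcripts 10.7% were called higher and 22.8% lower, with a median of -0.11. The minimum is a mean over all libraries. *Slc16a3* and *Fam162a*, with means under 1 RPKM at low glucose, therefore entered only through their high-glucose values. Untested genes included *Arnt2* and *Cul2*, both lower at high glucose, and others that were higher. With at least 1 RPKM in every library, 20 of 31 genes were called higher and 1 lower. With no minimum, 14 of 57 were higher and 2 lower. Voom on reconstructed reads called 35 of 56 higher and 6 lower.

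Of 14 HIF subunits and regulators beside *Hif1a*, *Egln1* and *Egln3*, 9 were tested. Of these 2 were called higher and none lower, against 10.7% and 22.8% of all transcripts, with a median of -0.01. With median centring or quantile normalization 3 were higher and 1 lower. With median centring the lower gene was *Hif1an* (log2 fold change -0.15, limma adjusted p = 0.0470). *Cited2*, a HIF-induced protein that competes with HIF for its coactivators, had a mean of 5.31 ± 0.406 RPKM (SD, n = 2) at 2.8 mM and 7.48 ± 0.735 RPKM at 16.8 mM (log2 fold change 0.46, limma adjusted p = 0.0251). *Tceb2*, elongin B of the VHL complex, rose by 0.39 (limma adjusted p = 0.0351). The partner *Arnt* and the ligase subunit *Vhl*, chosen after their values were seen, had log2 fold changes of -0.01 and -0.25, with limma adjusted p of 0.927 and 0.138. *Epas1*, the gene of the other main alpha subunit and also seen first, was below 0.19 RPKM in every library and was not tested. Among the other untested genes, *Arnt2* read 0.344 and 0.306 RPKM at 2.8 mM and 0.141 and 0.113 RPKM at 16.8 mM. *Cul2* and *Crebbp* were also lower in both 16.8 mM libraries than in both 2.8 mM libraries. The groups overlapped for *Epas1* and *Hif3a*.

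Of 20 glycolytic targets beside *Pdk1*, 15 were tested. Of these 14 were called higher and 1 lower, against 10.7% and 22.8% of all transcripts, with a median log2 fold change of 1.30. With median centring 13 were higher and 1 lower. *Ldha*, lactate dehydrogenase A, which is kept very low in healthy beta cells, read 1.82 and 3.81 RPKM at 2.8 mM and 10.7 and 9.39 RPKM at 16.8 mM (log2 fold change 1.74, limma adjusted p = 0.0038). *Slc16a3*, the lactate exporter MCT4, read 0.243 and 0.484 RPKM at 2.8 mM and 2.33 and 1.94 RPKM at 16.8 mM (log2 fold change 1.62, limma adjusted p = 5.5e-04). *Eno2*, the neuronal enolase also made by endocrine cells, fell by 0.62 on the log2 scale (limma adjusted p = 0.0080). Glycolytic genes are also known to be induced by glucose through factors other than HIF.

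Of 24 other targets, 15 were tested. Of these 9 were called higher and none lower, against 10.7% and 22.8% of all transcripts, with a median of 0.47. The count of rises was 10 with median centring. *Fam162a*, a HIF-induced mitochondrial protein, read 0.690 and 1.06 RPKM at 2.8 mM and 2.96 and 2.30 RPKM at 16.8 mM (log2 fold change 1.19, limma adjusted p = 0.0021). The carbonic anhydrase gene *Car9*, a much used hypoxia marker chosen after its values were seen, was below the minimum and its groups overlapped, with 0.0894 and 0.491 RPKM at 2.8 mM and 0.452 and 0.923 RPKM at 16.8 mM. *Hmox1*, chosen likewise, had a log2 fold change of -0.07 (limma adjusted p = 0.751).

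Of the 9 receptors and coreceptors for VEGFA and adrenomedullin, only *Ramp2* reached the minimum. *Ramp2*, which makes the calcitonin-receptor-like receptor respond to adrenomedullin, read 2.32 and 2.09 RPKM at 2.8 mM and 4.28 and 4.37 RPKM at 16.8 mM (log2 fold change 0.84, limma adjusted p = 0.0013). *Calcrl*, its partner and chosen after its values were seen, was between 0.0250 and 0.0527 RPKM.

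Neither the list of stress response genes nor that of clock genes held a rise in the fit as reported. Of 9 genes of the integrated stress response, 8 were tested and 6 were called lower, against 22.8% of all transcripts, with a median of -1.27; *Ddit3* fell by 2.83 and *Trib3* by 1.96 on the log2 scale (limma adjusted p = 6.2e-05 and 1.2e-04). Of 11 clock genes beside *Bhlhe40*, 7 were tested and 4 were called lower, against the same 22.8%, with a median of -0.35, while 1 was higher with median centring or quantile normalization. *Dbp* fell by 1.37 and *Nr1d2* by 0.86 (limma adjusted p = 3.8e-04 and 7.8e-04). The part of these changes in the values of *Bhlhe40* was not tested.

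**Figure D4:**
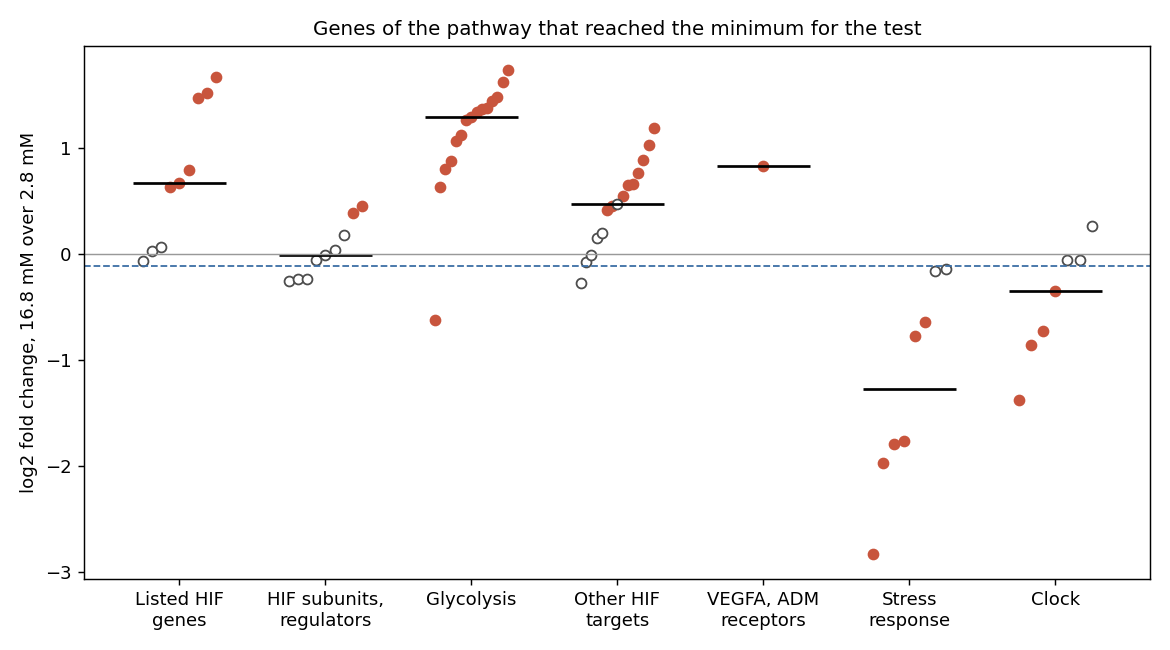
Log2 fold change, 16.8 mM over 2.8 mM glucose (vertical axis, log2(RPKM + 0.5) scale), of the tested genes in each list (horizontal axis); filled points passed the test, open points did not, black bars are list medians, and *Cited2* stands in 2 lists. The dashed line at -0.11 is the median of all tested transcripts; the medians run from 1.30 for glycolysis to -1.27 for the stress response.

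The genes whose pattern over the 4 libraries was closest to that of *Ankrd37* were sought among 6807 genes, by the Euclidean distance of log2(RPKM + 0.5) values centred on each gene's mean. The nearest was *Slc16a3* at 0.0721, then *Adm* at 0.157 and *Hilpda*, a lipid droplet protein, at 0.176. *Hilpda* read 1.69 and 2.52 RPKM at 2.8 mM and 8.29 and 5.96 RPKM at 16.8 mM. *Bnip3* was eighth, at 0.279, and *Pdk1* stood at rank 159, *Bhlhe40* at 223 and *Egln1* at 256. *Hif1a* stood at rank 1738, *Vegfa* at 1817 and *Ndrg1* at 2661. The measure takes in both the change between groups and the gaps between replicates. The added 0.5 shrinks the differences of genes low at 2.8 mM, such as *Slc16a3* and *Adm*, more than those of *Ankrd37*. With nothing added, the log2 ratio of means was 2.13 for *Adm* and 1.87 for *Ankrd37*.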

How the data were processed

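RNA-seq of total RNA from pooled islets gave 4 libraries, 2 per glucose concentration (TruSeq v2). The authors deposited 1 table of RPKM values; the submitters' notes name STAR, bedtools, DESeq and mm9, with no versions. How strand was used is not given in the sources used here. The table's 33923 rows were reduced to 28047 distinct entries.

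Depths of 50800000 to 60710000 reads were recovered from the steps of the miRNA hairpin values (98.8 to 99.1% whole within 0.05 reads). Low transcripts gave whole reads for 64.7 to 68.5% of values with a length that includes introns and 7.0 to 8.0% with exon length. Reads quoted are estimates from these depths, and the number of libraries limits the precision more than depth.

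Values were tested as log2(RPKM + 0.5), which understates the change of low genes, with limma 3.58.1 in R 4.3.3 (variance trend, mean of at least 1 RPKM, adjusted p under 0.05). On simulated data with 200 of 7867 transcripts changed by 1 on the log2 scale, 100% were recovered and 5.21% of calls were false. In the islet libraries, where 2628 of 7867 transcripts were called, the share of changes recovered and of false calls was not tested. Alternatives were other scalings, minima, added values and row choices, the replicate block, voom on rounded reconstructed reads (mean of 20 or more), and leaving out each library.

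The 10 genes and the lists were chosen with earlier results of these data known. Named beside the 10 genes were, per list, at most the 2 largest rises and 2 largest falls among calls, and the 3 genes nearest to the gene with the largest rise; the 10 genes held no fall. For 1 gene so named, values are not reported here. Marker genes stand in the text for their lists. Promoter sequences are RefSeq's on GRCm38.p6; gene coordinates are GENCODE's on mm9. Other steps ran in Python 3.11.15 (numpy 2.4.6, pandas 2.3.3), with figures from matplotlib 3.10.9.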

Additional observations from a re-analysis of the deposited data

How the results depend on the processing

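No gene of the 10 that passed the test turned its direction under any alternative run, and *Ankrd37* and *Adm* passed 0.05 in each fit that tested them. Of the 10 genes, 6 were called as reported and 6 in each fit that left out 1 library, where the lone library of a group is assumed to vary like the other group; 3 were called with no minimum RPKM, namely *Adm*, *Ankrd37* and *Egln3*. A minimum of 1 RPKM in every library left 7 to test and 4 called, since *Adm* and *Egln1* dropped out. With quantile normalization or median centring 6 were called, with *Hif1a* in and *Bhlhe40* out. At an adjusted p under 0.01, 5 were called, and voom on reconstructed reads called 7 of 10. Of 7867 transcripts 2628 were called, 838 of them higher and 1790 lower; the split was 1662 and 2103 with median centring and 1576 and 2154 with quantile normalization, and voom, which tested 19180, called 7961. Leaving out 1 library gave 1825 to 2579. Of the other pathway genes 25 of 38 were called, 16 of 57 with no minimum, 41 of 56 with voom, and 22 to 25 with 1 library left out. The replicate block gave 4067 transcripts, 26 other pathway genes and 5 of the 10 genes, losing *Bhlhe40* (limma adjusted p = 0.0518); voom with the replicate block gave 10806 of 19180, 47 of 56 and 7 of 10. The labels do not say that a replicate number marks a shared source, and same-numbered deviations from the group means correlated at 0.31. Replicates of *Egln3* and *Adm* at 2.8 mM differed by more than counting error, so the 2 libraries per group, more than depth, limit the precision. The replicate block changed the lists too: 3 of the HIF subunits and regulators were higher and 1 lower, 13 glycolytic targets were higher, and 1 clock gene was higher.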
